A study of Homo sapiens with 6 samples.

Results

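The genes described here are the cadherins CDH1, CDH2 and CDH3, the mesenchymal proteins VIM and FN1, and the transcription factors ZEB1, ZEB2, SNAI1, SNAI2 and TWIST1. These 10 genes were taken by name as the classical readout of epithelial-mesenchymal transition (EMT), out of 54644 genes in the tables. The cells were SKBR3, an established HER2-amplified breast cancer line of epithelial origin. The 3 CTTN libraries came from cells stably carrying the lentiviral vector pLVX with CTTN, and the 3 control libraries from cells stably carrying pLVX alone. All cells were selected with puromycin, and the vector control therefore shared the infection and the selection. CTTN encodes cortactin, an actin-binding protein that promotes branched actin networks, and the study asked how its overexpression changed HER2-positive cells. Polyadenylated RNA was sequenced as paired ends. Nothing in the labels says whether the 3 libraries of a group came from separate cultures, so p-values measure the spread between these libraries only.

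Adherens junctions hold epithelial cells together through classical cadherins, whose cytoplasmic tails bind catenins and through them actin. In EMT, repressors of the SNAI, ZEB and TWIST families bind E-box motifs in epithelial genes such as CDH1, and cells lose E-cadherin while gaining N-cadherin, vimentin and fibronectin. SKBR3 is known as a line without E-cadherin protein, with a homozygous loss within CDH1. Expression of each gene is given below on 2 scales. Normalised fragments are fragments assigned to the gene divided by a size factor of the library, and serve to compare libraries. FPKM, the fragments scaled to transcript length and library size, serves to compare levels between genes.

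The libraries held 35618400 to 42126200 fragments. The labelled line was checked by its markers: ERBB2, the gene of HER2, lay at 1644 to 1790 FPKM and KRT8, a keratin of simple epithelia, at 1454 to 2509 FPKM. The CTTN gene itself had 29090, 37140 and 19000 normalised fragments in CTTN replicates 1, 2 and 3, against 10910, 11230 and 11270 in the controls. CTTN was higher in 3 of 3 CTTN libraries, by 1.30 on the log2 scale (SE 0.22, adjusted p = 0.028, limma). Its adjusted p was 0.15 without CTTN replicate 1 and 0.14 to 0.15 without any single control. Control libraries are numbered in the order of the deposited columns, because the labels give these columns other names than the tables do.

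CTTN replicates 1 and 3 stood apart from the other 4 libraries by transcript length, which bears on every value below. Genes were placed in 8 bins of mean transcript length, and each library was set against the control mean. In the shortest bin the median log2 difference was 0.33 in CTTN replicate 1, 0.014 in replicate 2 and 0.72 in replicate 3. In the longest bin it was -0.40, -0.0076 and -0.75. The controls stayed between -0.067 and 0.055 in these bins. Each comparison was therefore repeated with the length trend removed from every library, and with CTTN replicate 2 alone against the 3 controls, both chosen after the data were seen. In the second of these the lone CTTN library is assumed to vary as the controls do.

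Of the 10 genes, FN1 and SNAI1 were expressed at several FPKM, CDH1, VIM and CDH2 carried a few fragments, TWIST1 carried 1 fragment in all, and CDH3, ZEB1, ZEB2 and SNAI2 carried none. By mean FPKM over the 6 libraries, FN1 was at 6.14, SNAI1 at 4.66, VIM at 0.173, CDH1 at 0.117, CDH2 at 0.0192 and TWIST1 at 0.00451. FN1 lay above 68.5% of all genes with any fragment, SNAI1 above 65.8%, VIM above 39.4% and CDH1 above 35.7%. In these bulk libraries, fewer cells of a type and less RNA per cell cannot be told apart. The ranges of FN1 and SNAI1 did not overlap, while those of VIM and CDH1 did, as did those of CDH2 and TWIST1. Between CTTN and control cells, 4 of the 10 genes had the mean of 10 normalised fragments needed for the test, and 0 of these 4 passed it at an adjusted p under 0.05. At an unadjusted p under 0.05 only FN1 of these 4 passed, as did 4374 of all 14331 genes tested (limma). Run on fragments brought back to the library scale, edgeR also called 0 of the 4, with an unadjusted p of 0.054 for FN1. Over all 14331 genes tested, 606 passed at an adjusted p under 0.05 (limma), which is 4.23%, with 2.27% higher and 1.96% lower in CTTN cells. The 6 genes that were not tested had too few fragments, and a difference at their low level was not detectable at this depth.

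**Figure D1:**
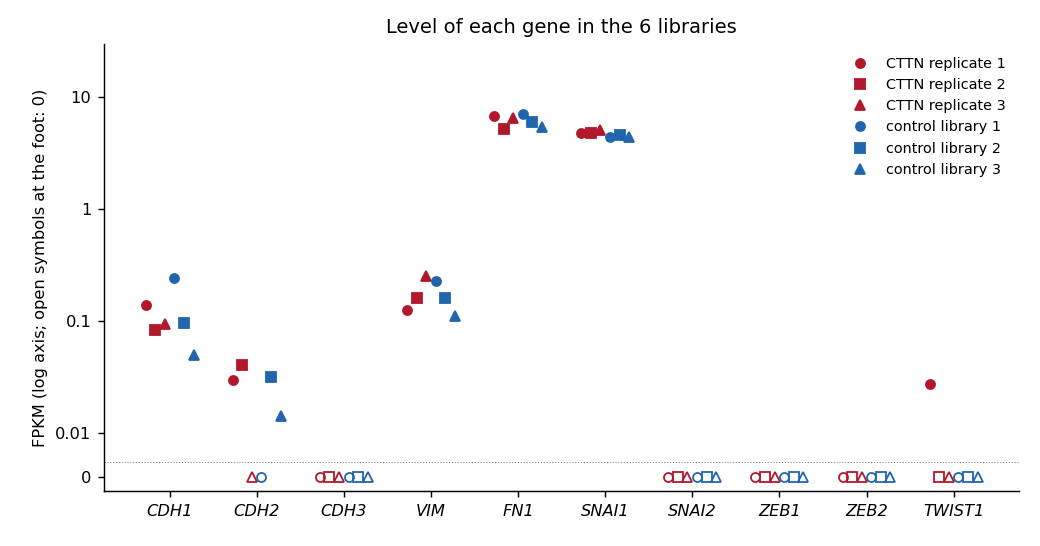
FPKM of the 10 genes (log axis) in each of the 6 libraries, with open symbols at the foot for a value of 0. FN1 and SNAI1 sit between 4.37 and 6.99 FPKM, CDH1 and VIM between 0.0501 and 0.251 FPKM, and CDH3, SNAI2, ZEB1 and ZEB2 at 0 in every library.

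CDH1 encodes E-cadherin, the cadherin of epithelial adherens junctions, at chr16:68737225-68835548 (GRCh38, the span the tables give for its transcripts). It had 10.4, 8.79 and 16.6 normalised fragments in CTTN replicates 1 to 3 and 14.4, 6.11 and 8.62 in the controls. The groups overlapped, with the highest value in CTTN replicate 3 and the lowest in control library 2. In fragments as counted, the CTTN libraries held 34 together (exact Poisson 95% interval 23.6 to 47.5) and the controls 30 (20.2 to 42.8). These intervals cover counting error only. The log2 fold change was 0.30 (SE 0.41, 95% interval -0.67 to 1.26, adjusted p = 0.62, limma). Neither the fold nor its sign is therefore fixed by these libraries, and the estimate was -0.088 from FPKM and -0.056 with CTTN replicate 2 alone. The few fragments were spread over 5 of the 19 transcript models, so no start site of CDH1 is described.

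CDH2 encodes N-cadherin, the neural and mesenchymal cadherin that replaces E-cadherin in classical EMT. It had 4.15, 5.86 and 0 normalised fragments in the CTTN libraries and 0, 4.36 and 1.92 in the controls. Each group held a library at 0, and the groups overlapped. The fragments as counted came to 10 in CTTN cells (exact Poisson 95% interval 4.80 to 18.4) and 7 in control cells (2.81 to 14.4). CDH3 encodes P-cadherin, found in basal cells of stratified and glandular epithelia. It had 0 fragments in all 6 libraries. A count of 0 allows up to 3 fragments, which is 2.62 to 3.33 normalised fragments by library. All 10 housekeeping genes looked up had values above 0 in every library.

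VIM encodes vimentin, the intermediate filament protein of mesenchymal cells, at chr10:17214239-17237593. It had 8.29, 10.8 and 15.5 normalised fragments in CTTN replicates 1 to 3 and 14.4, 10.5 and 5.75 in the controls. The groups overlapped almost wholly. The fragments as counted were 33 in CTTN cells (exact Poisson 95% interval 22.7 to 46.3) and 32 in controls (21.9 to 45.2). On the log2 scale the difference was 0.20 (SE 0.42, 95% interval -0.78 to 1.18, adjusted p = 0.75, limma). It turned to -0.023 without CTTN replicate 3 and to -0.13 without control library 3.

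FN1 encodes fibronectin, a large glycoprotein of the extracellular matrix, and was the most highly expressed of the 10 genes per length. Its transcripts span chr2:215360440-215436172. The CTTN libraries had 985, 1555 and 642 normalised fragments (mean 1060 ± 461, SD, n = 3), and the controls 1601, 1659 and 1717 (1659 ± 57.8, SD, n = 3). All 3 CTTN libraries were below all 3 controls, but CTTN replicate 2 was below the lowest control by a small margin while replicates 1 and 3 lay far lower. Over all genes tested, 38.7% had groups that did not overlap in this way. The log2 fold change was -0.74 (SE 0.29, 95% interval -1.41 to -0.066 before adjustment, adjusted p = 0.14, limma), so FN1 did not pass the test. Without CTTN replicate 2 it was -1.06 with an adjusted p of 0.0026, without CTTN replicate 3 it was -0.42 with an adjusted p of 0.14, and with CTTN replicate 2 alone it was -0.093 with an adjusted p of 0.47.

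FN1 was also compared with genes of like length. The 500 tested genes closest to FN1 in mean transcript length, 4723 to 5281 bases, had a median difference from the control mean of -0.29, -0.0040 and -0.58 on the log2 scale in CTTN replicates 1 to 3. FN1 differed by -0.75, -0.093 and -1.37, in the same order of libraries and by more than that median in each. The mean length used for FN1, 5002 bases, weighted its transcript models by FPKM. Models of 7000 bases or longer held 84.3% to 91.0% of FN1 fragments in the controls, and these are longer than the neighbours compared. With the length trend removed, at that same mean length, the log2 fold change of FN1 was -0.45 (adjusted p = 0.069, limma), in a fit that called 18.8% of genes. The part of length in the FN1 difference was not tested further. On the FPKM scale the groups overlapped, with 6.82, 5.20 and 6.47 FPKM in CTTN cells and 6.99, 5.97 and 5.38 FPKM in control cells. The log2 fold change there was 0.0098. However, the FPKM of all genes summed to 704000, 605300 and 852300 in CTTN replicates 1 to 3. In the controls these sums were 624700, 609500 and 603600, so FPKM did not compare the libraries at an equal total.

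**Figure D2:**
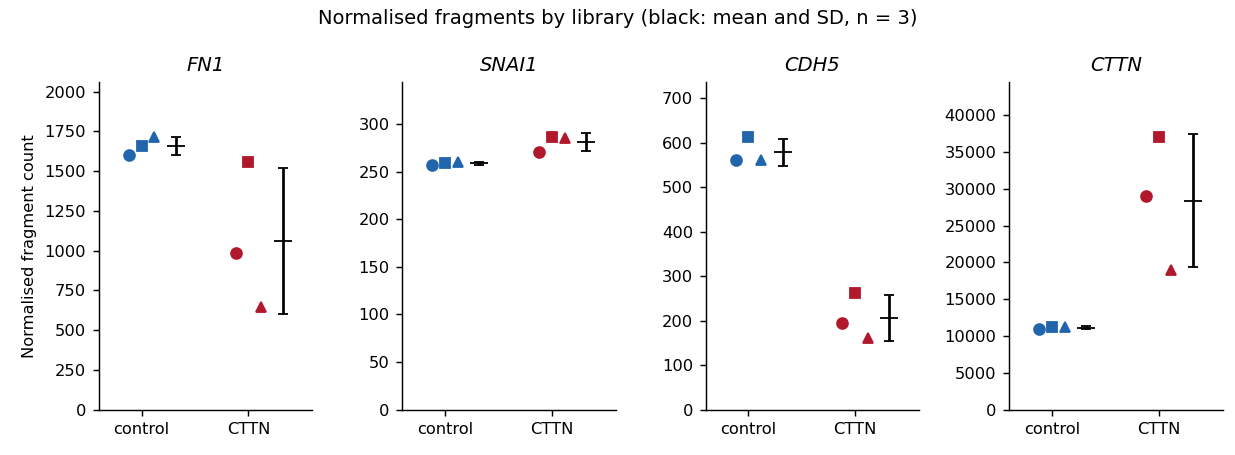
Normalised fragment counts of FN1, SNAI1, CDH5 and CTTN by library, control in blue and CTTN in red (circle, square and triangle for library 1, 2 and 3), with the mean and SD of 3 libraries in black. The FN1 values of CTTN cells range from 642 to 1555 and their highest lies close to the controls, while CDH5 is at 162 to 262 in CTTN cells and 560 to 614 in controls.

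The transcript models of FN1 separated the 2 scales. Fibronectin has full-length forms and a set of shorter ones. The 14 models of 7000 bases or longer had 703, 1394 and 313 normalised fragments in CTTN replicates 1 to 3 and 1349, 1424 and 1563 in the controls. The 16 shorter models had 282, 161 and 329 in CTTN cells and 252, 235 and 154 in controls. The long models thus held 71.4%, 89.6% and 48.8% of FN1 fragments in CTTN replicates 1 to 3 and 84.3%, 85.8% and 91.0% in the controls. Replicates 1 and 3 were below all controls, whereas replicate 2 lay within their range. Because a fragment on a short model counts for more FPKM, the long models made up 28.2%, 73.4% and 14.4% of FN1 FPKM in CTTN cells and 51.3%, 65.4% and 78.8% in controls.

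**Figure D3:**
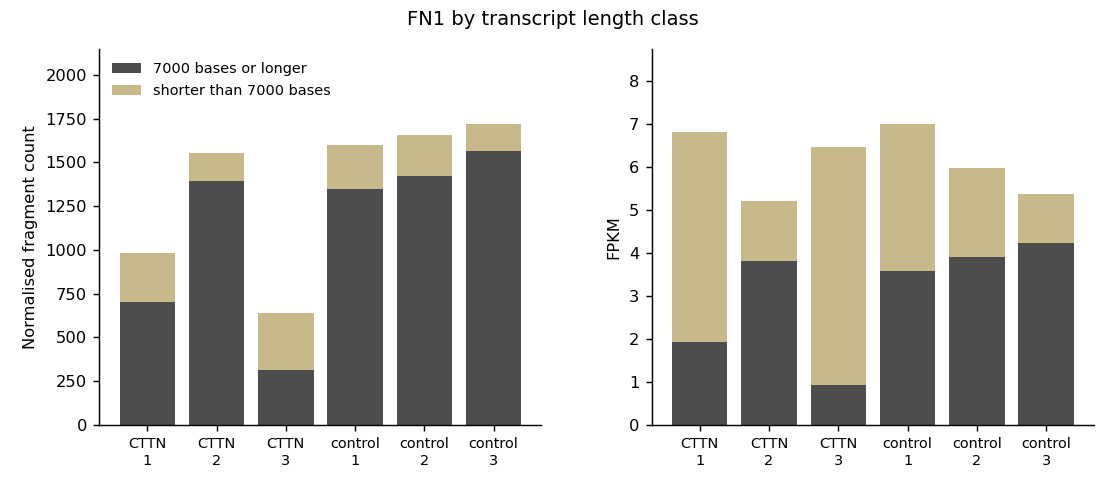
FN1 by transcript length class in each library, as normalised fragments (left) and FPKM (right), with bars stacked for models of 7000 bases or longer and for shorter ones. The long models hold 313 normalised fragments in CTTN replicate 3 and 1349 to 1563 in the controls, while total FN1 FPKM stays between 5.20 and 6.99 in all libraries.

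The same pattern appeared among start sites, the groups of models that share a first base. The main FN1 start site, whose models average 8077 bases, had 695, 1384 and 136 normalised fragments in CTTN replicates 1 to 3 and 1330, 1415 and 1552 in the controls. Its log2 fold change was -1.49 (SE 0.83, adjusted p = 0.44, limma). It was -0.54 without CTTN replicate 3, -2.21 without CTTN replicate 2 and -0.047 with CTTN replicate 2 alone, with adjusted p of 0.59, 0.11 and 0.90. In CTTN replicate 3 a further 170 normalised fragments were assigned to another start site, of 7350 bases, which held about 0 in the other 5 libraries. A second start site, of 3720 bases, had 211, 152 and 162 in CTTN cells and 217, 218 and 146 in controls. That difference was -0.14 on the log2 scale (adjusted p = 0.78, limma), with overlapping groups. Over 36603 start sites tested, 0% passed an adjusted p under 0.05, with 4063 at an unadjusted p under 0.05, and 23% had groups that did not overlap.

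The cassette exons extra domain A and extra domain B distinguish the fibronectin of embryonic and remodelled tissue from that of plasma. The junctions are shown because reads across them are what tells the forms apart. They were read from GENCODE transcripts by transcript identifier, and capitals mark the cassette exon.
Extra domain A, upstream junction: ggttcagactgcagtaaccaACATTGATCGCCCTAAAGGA
Extra domain A, downstream junction: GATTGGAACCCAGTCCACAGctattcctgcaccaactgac
Extra domain A, skipped: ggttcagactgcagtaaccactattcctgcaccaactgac
Extra domain B, upstream junction: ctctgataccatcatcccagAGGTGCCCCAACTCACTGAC
Extra domain B, downstream junction: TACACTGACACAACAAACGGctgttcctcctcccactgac
Extra domain B, skipped: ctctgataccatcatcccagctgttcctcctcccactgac
The exons are 270 and 273 bases long. Among 7 annotated long models, 4 hold extra domain A, and these had 77.8%, 50.3% and 89.6% of the fragments of the 7 in CTTN replicates 1 to 3 and 78.8%, 55.4% and 54.6% in the controls. The 7 leave out a model of 7350 bases, which held 170 of the 313 long-model fragments in CTTN replicate 3. The 3 models with extra domain B had at most 8.30% in CTTN cells and 2.29% to 9.49% in controls. Both ranges overlapped between the groups. These shares are estimates over whole transcripts, not counts of junction reads, and were not tested.

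The FN1 promoter is shown beside that of VIM because the first gene was expressed and the second carried a few fragments. RefSeq windows (GRCh38.p14) were found for 5 of the 10 genes. Each run gives the 250 bases before the start, FN1 on the minus strand at chr2:215436069-215436318 and VIM on the plus strand at chr10:17227991-17228240. Capitals mark TGACGTCA, the cyclic AMP response element, which reads the same on both strands.
FN1: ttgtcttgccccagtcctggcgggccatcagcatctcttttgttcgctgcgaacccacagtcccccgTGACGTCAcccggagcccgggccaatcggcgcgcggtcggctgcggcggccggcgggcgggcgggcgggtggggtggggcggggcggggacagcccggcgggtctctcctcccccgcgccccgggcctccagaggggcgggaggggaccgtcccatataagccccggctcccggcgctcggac
VIM: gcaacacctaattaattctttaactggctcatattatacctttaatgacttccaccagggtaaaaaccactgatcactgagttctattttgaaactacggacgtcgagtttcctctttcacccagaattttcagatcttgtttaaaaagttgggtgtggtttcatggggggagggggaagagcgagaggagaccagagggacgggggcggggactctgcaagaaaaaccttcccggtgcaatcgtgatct
In FN1 the element begins 183 bases before the start, and 1.65% of the 35116 promoter windows hold it. The E-box CAGGTG, or CACCTG on the other strand, is in neither run, and 17.5% of windows hold it.

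The transcription factors divided into SNAI1, which was expressed, and the others. SNAI1 encodes Snail, a zinc-finger repressor of CDH1 whose protein is short-lived, at chr20:49982999-49988886, with 1 transcript model of 1686 bases. It had 270.6, 287.3 and 285.9 normalised fragments in CTTN replicates 1 to 3 (281 ± 9.28, SD, n = 3) and 256.9, 259.2 and 260.6 in the controls (259 ± 1.86, SD, n = 3). All CTTN libraries were above all controls, as was so in one direction or the other for 38.7% of genes. The log2 fold change was 0.12 (SE 0.092, 95% interval -0.098 to 0.34, adjusted p = 0.38, limma). The medians of the 500 genes nearest in length averaged 0.18 over the CTTN libraries, and with the length trend removed SNAI1 stood at -0.047. With CTTN replicate 2 alone, which showed no length trend, the value was 0.15 (adjusted p = 0.50). In FPKM, SNAI1 was at 4.76, 4.79 and 5.06 in CTTN cells and 4.37, 4.60 and 4.38 in controls.

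SNAI2, which encodes Slug, and ZEB1 and ZEB2, large zinc-finger repressors held down by miR-200 in epithelial cells, had 0 fragments in all 6 libraries. TWIST1, a basic helix-loop-helix factor, had 1 fragment in CTTN replicate 1 and 0 elsewhere. A count of 0 in a library allows up to 3 fragments. No fold change is given for these 4 genes.

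The gene lists around these members were then read from the same fit. Of 20 other cadherins, 12 had 0 fragments in all libraries and 4 were tested. CDH5, vascular endothelial cadherin, was lower in CTTN cells and 0 were higher. CDH5 had 194, 262 and 162 normalised fragments in CTTN replicates 1 to 3 and 561, 614 and 560 in the controls, with every CTTN library below every control. Groups did not overlap in 38.7% of all genes. The log2 fold change of CDH5 was -1.51 (SE 0.18, adjusted p = 0.0084, limma). It was -1.14 with CTTN replicate 2 alone and -1.39 with the length trend removed. CDH5 passed with the length trend removed, in a fit that called 18.8% of all genes. It missed the threshold without CTTN replicate 1 (-1.49, adjusted p = 0.077) and without control library 1, 2 or 3 (adjusted p = 0.062, 0.076 and 0.066), with log2 fold changes of -1.54, -1.47 and -1.54 in the latter. Of other endothelial genes, VWF had 23.8, 34.2 and 24.4 normalised fragments in CTTN replicates 1 to 3 and 33.0, 57.6 and 42.2 in the controls, with overlapping groups (log2 fold change -0.65, adjusted p = 0.16, limma). PECAM1 had 5.18, 4.89 and 2.22 in CTTN cells and 6.19, 1.75 and 0.958 in controls. The markers of other cell types (fibroblast, endothelial, blood, basal and smooth muscle) without CDH5 and without a CD68 row merged with its neighbours summed to 0.614 to 1.02 FPKM in CTTN cells and 0.576 to 0.643 FPKM in controls, with 0 of these 10 genes at 0 in all libraries. Their part in the CDH5 difference was not tested. Among other cadherins that did not pass, CDH24 was the highest, at 15.7 to 21.1 FPKM (log2 fold change -0.13). CDH26 was at 0.0963 to 0.252 FPKM (log2 fold change -1.03, adjusted p = 0.091). CDH26 passed with the length trend removed (-1.07, adjusted p = 0.049), so that 2 of the 4 cadherins tested were lower in that fit, which called 18.8% of all genes against 4.23% before.

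Of 16 catenins and partners of adherens junctions, 13 were tested and 0 passed, where 4.23% of all genes passed, so that a count of 0 says little about a list of this size. The median log2 fold change was -0.069 against 0.0050 for all genes. With the length trend removed, 4 were higher and 3 lower, in a fit that called 18.8% of all genes. With CTTN replicate 2 alone 3 were higher and 0 lower, beside 14.3% of all genes. The median turned to 0.094 there and to 0.045 with CTTN replicate 2 alone. JUP, or plakoglobin, a catenin of junctions and desmosomes, had 27830, 27210 and 29480 normalised fragments in CTTN replicates 1 to 3 and 23200, 21580 and 23050 in the controls. Every CTTN library was above every control, and 38.7% of all genes had groups that did not overlap. The log2 fold change of JUP was 0.32 (adjusted p = 0.066, limma) and 0.27 with CTTN replicate 2 alone. With the length trend removed it was 0.40 (adjusted p = 0.0085). It was 0.16 with quantile normalisation (adjusted p = 0.19), and the adjusted p was 0.24 without CTTN replicate 1 and 0.22 to 0.28 without any single control. It passed with DESeq2 (adjusted p = 0.0038) and without CTTN replicate 2 (0.34, adjusted p = 0.0085). CTNND1, p120 catenin, is in a row merged with TMX2 and neighbours, and its value of -0.14 on the log2 scale is therefore uncertain.

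Of 27 epithelial markers and factors that maintain the epithelial state, all 27 were tested and 0 passed (median log2 fold change 0.025), beside 4.23% of all genes. With the length trend removed 4 were higher and 3 lower (median -0.012), beside 18.8% of all genes called, and with CTTN replicate 2 alone 3 were higher and 4 lower, in a fit that called 14.3% of genes. KRT19, a keratin of simple epithelia with the highest mean FPKM of the list over the 6 libraries, though below KRT8 in each control, lay at 1803 to 3394 FPKM in CTTN cells and 1739 to 1823 FPKM in controls. Its log2 fold change was 0.46 (adjusted p = 0.13, limma), 0.22 with the length trend removed (adjusted p = 0.039) and 0.12 with CTTN replicate 2 alone (adjusted p = 0.29). It was 0.63 without CTTN replicate 2 (adjusted p = 0.0034) and 0.29 without CTTN replicate 3 (adjusted p = 0.13). KRT8 differed by -0.033 on the log2 scale (adjusted p = 0.87, limma), and by -0.28 with CTTN replicate 2 alone.

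Of the 15 other transcription factors tied to EMT that are reported here, 3 had 0 fragments in all libraries and 7 were tested (median log2 fold change 0.14). Among these 7, PRRX2, a paired-related homeobox factor, was higher in CTTN cells and the other 6 did not pass, where 4.23% of all genes passed. PRRX2 had 15.6, 20.5 and 29.9 normalised fragments in CTTN replicates 1 to 3 and 6.19, 6.98 and 5.75 in the controls. Every control lay under the mean of 10 needed for the test, so PRRX2 was tested only through its CTTN libraries. The log2 fold change was 1.61 (SE 0.33, adjusted p = 0.045, limma), at about 0.451 FPKM on average. Every CTTN library was above every control, and 38.7% of all genes had groups that did not overlap. The adjusted p of PRRX2 was 0.12 without CTTN replicate 1, 0.061 without CTTN replicate 3 and 0.16 to 0.18 on leaving out any 1 control. It was 0.074 without a filter on low values and 0.065 from FPKM. With CTTN replicate 2 alone PRRX2 differed by 1.56 (adjusted p = 0.093). It passed with the length trend removed (1.36, adjusted p = 0.025), with DESeq2 (1.79, adjusted p = 0.0090) and without CTTN replicate 2 (1.63, adjusted p = 0.015). TCF3, an E-protein, was the highest of the list that did not pass, at 27.5 to 33.9 FPKM (log2 fold change 0.14). KLF8, a repressor of the Kruppel-like family, was next at 3.45 to 9.78 FPKM (log2 fold change -0.76, adjusted p = 0.12). Its log2 fold change was -1.06 without CTTN replicate 2 (adjusted p = 0.0019), -0.50 without CTTN replicate 3 (adjusted p = 0.11) and -0.17 with CTTN replicate 2 alone (adjusted p = 0.20). With the length trend removed, TCF3 was 0.17 higher and KLF8 fell by 0.42 on the log2 scale, and both passed, beside 18.8% of all genes in that fit.

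Of the 24 mesenchymal genes reported here, 17 were tested, of which 2 were lower in CTTN cells and 15 did not pass (median log2 fold change -0.087), where 4.23% of all genes passed. The median turned to 0.13 with the length trend removed, where 1 was higher and 3 lower beside 18.8% of all genes called. It was 0.15 with CTTN replicate 2 alone, where 0 were higher and 3 lower beside 14.3% of all genes called. TGFBI, a matrix protein induced by TGF-beta, had 373, 396 and 371 normalised fragments in CTTN replicates 1 to 3 and 850, 744 and 784 in the controls. Its log2 fold change was -1.06 (SE 0.092, adjusted p = 0.0041, limma), -1.11 with the length trend removed and -0.998 with CTTN replicate 2 alone. NT5E, the cell-surface nucleotidase CD73, had 476, 499 and 400 in CTTN cells and 642, 694 and 693 in controls (log2 fold change -0.57, adjusted p = 0.041, limma). In both genes the groups did not overlap, as in 38.7% of all genes, and both passed with the length trend removed. With CTTN replicate 2 alone NT5E differed by -0.44 on the log2 scale. From FPKM both lost the call, with -0.73 for TGFBI (adjusted p = 0.092) and -0.40 for NT5E (adjusted p = 0.17), and NT5E also lost it without a filter on low values (adjusted p = 0.053). Without CTTN replicate 1 the adjusted p was 0.054 for TGFBI and 0.17 for NT5E. Leaving out single controls gave 0.051 and 0.053 for TGFBI without control library 2 and 3, and 0.15 to 0.21 for NT5E. S100A4, a calcium-binding protein used as a fibroblast marker, was at 132 to 336 FPKM and did not pass (log2 fold change 0.69, adjusted p = 0.12). It passed with the length trend removed (0.30, adjusted p = 0.015), with DESeq2 (adjusted p = 0.029) and without CTTN replicate 2 (0.95, adjusted p = 0.0028), and was 0.43 without CTTN replicate 3 (adjusted p = 0.090) and 0.18 with CTTN replicate 2 alone (adjusted p = 0.13). ITGA5, the fibronectin receptor subunit, was at 5.98 to 8.94 FPKM (log2 fold change -0.22, adjusted p = 0.29).

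Of 19 corepressors and enzymes that act with, or turn over, the EMT factors, all 19 were tested and 0 passed (median log2 fold change -0.13), beside 4.23% of all genes. With the length trend removed the median was 0.00097, with 2 higher and 1 lower, beside 18.8% of all genes called in that fit. With CTTN replicate 2 alone 0 were higher and 2 lower, beside 14.3% of all genes. HDAC2, a histone deacetylase recruited by Snail, had 71.6 to 82.2 FPKM and a log2 fold change of 0.017. BMI1 is in a row merged with COMMD3 and differed by 0.078.

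The 3 genes closest to FN1 in pattern over the 6 libraries were SHROOM3, INAVA and TACC1 (Pearson's r of 0.9997, 0.9996 and 0.9995 on log2 values, among 14330 genes). This is a description, since CTTN replicates 1 and 3 carry the length dependence across genes. Their log2 fold changes were -0.62, -0.47 and -0.53, and 0 of the 3 passed the test. Their mean transcript lengths were 8175, 3478 and 6519 bases.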

How the data were processed

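RNA from 3 CTTN and 3 control samples was analysed. Per the labels and the study's methods, the authors prepared stranded TruSeq polyadenylated libraries, aligned with STAR and ran Cufflinks. The labels give GRCh38, which the spans in the tables match, and the methods give hg19. The deposited count tables hold fragments divided by a size factor of the library (a signal, 0.902 to 1.15, itself a deposited ratio). Multiplied back, 100% of values under 1000 fragments and 97.8% to 99.8% of all values came within 0.05 of whole fragments. The deposited FPKM values are scaled to transcript length and library size. Their sums over all genes differed between libraries, and they were not brought to an equal total before the fit from FPKM.

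Genes with a mean of at least 10 normalised fragments were tested with limma 3.58.1 (R 4.3.3), on log2(normalised fragments + 1), two-sided with a mean-variance trend and Benjamini-Hochberg adjustment. Fold changes are on that scale, which understates low genes. Genes were called at an adjusted p under 0.05, and 456 of 606 also passed a 1.5-fold minimum. Alternatives were other pseudocounts, no filter, quantile normalisation, FPKM, leaving out libraries, a replicate block, and edgeR 4.0.16 and DESeq2 1.42.0 on the recovered fragments (edgeR called 628 genes). The length trend was a lowess curve over log2 length. Scripts were tested on simulated data.

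The members and lists were chosen with earlier results of these data known. Named genes are the 10 members and CTTN, in each list up to 4 called genes of largest change and 2 uncalled genes of highest FPKM, and the 3 genes nearest FN1 in pattern. ERBB2, KRT8, VWF and PECAM1 are named as cell type markers, the last 2 after their values were seen. Of the lists, 1 transcription factor and 1 mesenchymal gene are not reported here, and the counts and medians of their lists leave them out. Replicates were not paired.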

Additional observations from a re-analysis of the deposited data

How the results depend on the processing

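Of 14331 genes, 606 passed, against 605 to 635 with other pseudocounts, quantile normalisation or edgeR. The count was 395 without a filter, 178 from FPKM, 2090 with DESeq2, 2697 with the length trend removed and 2055 with CTTN replicate 2 alone, and it ran from 15 to 6883 on leaving out 1 library (19, 6883 and 1172 without CTTN replicate 1, 2 and 3, and 43, 15 and 24 without control library 1, 2 and 3). For start sites the count was 0, with 1 at a pseudocount of 5, 82 without a filter, 2 with the length trend removed and 0 to 440 on leaving out 1 library, the 440 without CTTN replicate 2. The cause of these shifts was not tested. From FPKM, the log2 fold change reversed for CDH1 (-0.088), FN1 (0.0098), CDH24 (0.024), CTNND1 (0.16), KRT8 (0.044), ITGA5 (0.019) and HDAC2 (-0.067). With the length trend removed it reversed for SNAI1 (-0.047), HDAC2 (-0.12), BMI1 (-0.044) and the second FN1 start site (0.075), and with CTTN replicate 2 alone for CDH1 (-0.056), HDAC2 (-0.11) and BMI1 (-0.024). With quantile normalisation it reversed for KRT8 (0.056) and HDAC2 (-0.00041). On leaving out 1 library CDH1 ran from 0.038 to 0.60, VIM from -0.13 to 0.47, KRT8 from -0.16 to 0.092 and HDAC2 from -0.021 to 0.082. The labels and the tables disagree on which column is which numbered control. With the numbers of the library table, a replicate block gave 108 genes and 0 start sites. The call of 0 for the 4 EMT genes tested held there, and CTTN, PRRX2 and NT5E lost theirs (adjusted p = 0.059, 0.11 and 0.10, limma). Deviations of libraries with the same number correlated at 0.019, 0.076 and -0.19 across genes, and not every library correlated best with its own number, so the numbers were not taken as pairs.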
